A study of Rattus norvegicus with 24 samples.

Results

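Corticosterone is the chief adrenal glucocorticoid in rats. Its effect was compared with vehicle in hippocampal RNA from the 16 of 24 libraries that held the least transthyretin transcript. Transthyretin (Ttr, ENSRNOG00000016275) carries thyroid hormone and, with a partner protein, retinol, and in the brain its transcript is a marker of the choroid plexus, the tissue that makes cerebrospinal fluid in the ventricle beside the hippocampus. Libraries were ranked by Ttr CPM (counts scaled to 1 common library total, the total being all counts in genes), and the 16 lowest were kept. The kept set held 6 untrained vehicle, 4 trained vehicle, 3 untrained corticosterone and 3 trained corticosterone libraries, of 7, 5, 6 and 6 in the series. All came from male Sprague-Dawley rats, with 1 library per sample. Samples had either undergone training or not, and had received either corticosterone or vehicle. Age, task, dose and sampling time were not in the labels. The column of untrained vehicle replicate 41 stands among trained vehicle columns in the deposited table, and the label was followed. No label ties a sample to its own rat, so p-values measure only the spread between these samples, which may be partly technical.

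Corticosterone acts in hippocampal cells through the mineralocorticoid and glucocorticoid receptors, which on binding the hormone regulate transcription of their target genes in the nucleus. The hippocampus is rich in both receptors, and the hormone is known to affect how strongly memories are formed there. Only the identifier of Ttr could be tied to a gene name here, so the other genes carry their identifiers alone, with no function and no sequence.

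Ttr chose the libraries, so its values describe the choice. It stayed among the genes tested and was not called, which is not read as a result. Among the 16 kept libraries it ranged from 5.56 to 460 CPM with a median of 14.8 CPM, and among the other 8 from 1736 to 4725 CPM with a median of 3003 CPM. The kept libraries nearest the cut-off were untrained vehicle replicate 2 at 199 CPM, untrained vehicle replicate 22 at 270 CPM and trained corticosterone replicate 18 at 460 CPM. Just outside it lay trained vehicle replicate 5 at 1736 CPM and trained corticosterone replicate 8 at 2068 CPM. The 13 lowest libraries all lay at or below 33.6 CPM, so 3 of the 16 held several times more Ttr than the rest and were poor in it only relative to the 8. Within the 16, the 6 corticosterone libraries ranged from 5.56 to 460 CPM (median 14.1) and the 10 vehicle libraries from 6.08 to 270 CPM (median 16.7). The other 8 were 6 corticosterone and 2 vehicle libraries, so the treatments were unequally spread over the ranking. Fewer choroid plexus cells and less Ttr RNA per cell cannot be told apart in such bulk samples.

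**Figure D1:**
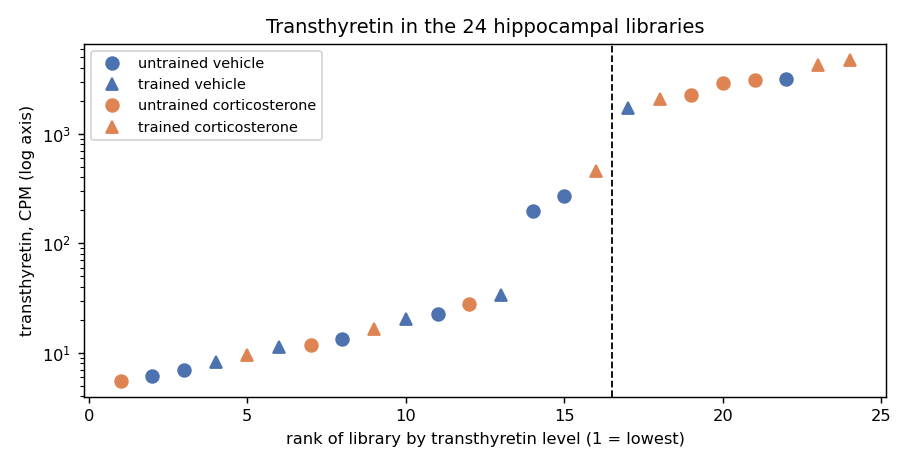
Transthyretin level of each of the 24 libraries in CPM (log axis) against its rank, with colour for treatment, circles for untrained and triangles for trained samples, and a dashed line at the cut-off. The 13 lowest libraries lie at or below 33.6 CPM, the next 3 between 199 and 460 CPM, and the 8 left out at 1736 CPM or more.

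Other transcripts moved with Ttr across the series. Over all 24 libraries, 21 genes besides Ttr had a Spearman correlation with it above 0.9, given as a description, since the libraries share their dissection and depth. Together these 21 genes made up 55.7 to 326 CPM in the kept libraries and 1015 to 2102 CPM in the others. They were chosen for following Ttr over the same libraries, so being low where Ttr was low was set by that choice. Other choroid plexus markers could not be looked up without names. Total counts in genes were 13760331 to 16765088 in the kept libraries. They averaged 15811155 ± 561420 reads in corticosterone (SD, n = 6) and 15152125 ± 1008000 reads in vehicle libraries (SD, n = 10), a difference that did not pass (exact permutation over libraries, two-sided p = 0.161, or 0.546 when adjusted over 8 library measures). Genes detected by 1 count or more numbered 18346 ± 83.5 in corticosterone (SD, n = 6) and 18223 ± 69.3 in vehicle libraries (SD, n = 10), a difference of 123 genes (exact two-sided permutation test, p = 0.00849, adjusted p = 0.0679). The test took no account of training. Means with corticosterone and vehicle were 18416 and 18205 in trained libraries. They were 18276 and 18235 in untrained libraries, where the ranges overlapped (18235 to 18330 and 18092 to 18304).

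In the kept libraries corticosterone raised 43 genes and lowered 8, with training as a covariate (edgeR quasi-likelihood test, adjusted p under 0.05). These 51 genes are 0.343% of the 14860 genes tested, 0.289% higher and 0.0538% lower. The response was mostly upward and mostly modest. A rise of 2-fold or more was seen in 4 genes, a rise of 1.5-fold to 2-fold in 13 and a smaller one in 26 (median 0.48 on the log2 scale). Of those that fell, 0 did so by 2-fold, 1 by more than 1.5-fold and 7 by less (median -0.35). Over all genes tested the median log2 fold change was 0.00. At this number of libraries the median gene had a 95% interval of ± 0.15 on the log2 scale. With DESeq2, which was run without the filter on low counts, 101 genes passed, 70 higher and 31 lower. Without that filter edgeR gave 53, 44 higher and 9 lower. With the 12 lowest libraries alone 22 passed (21 higher, 1 lower), and with the 14 lowest 38 (36 higher, 2 lower). Sets that reach past the cut-off, to 2068 and 2932 CPM of Ttr, gave more. The 18 lowest gave 71 (58 higher, 13 lower) and the 20 lowest 100 (76 higher, 24 lower). When runs of 5 sample numbers were blocked, a grouping for which the labels name no batch, 10 passed, all higher. Several of these runs held only vehicle or only corticosterone libraries among those kept, so fewer libraries informed the blocked comparison. How far this lowered the count was not tested.

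ENSRNOG00000017198 had the largest rise among the called genes and the smallest p. It was at 4.79, 5.05 and 5.53 CPM in untrained corticosterone libraries and at 5.79, 7.62 and 8.95 CPM in trained corticosterone libraries. In untrained vehicle libraries it ranged from 0.696 to 1.47 CPM around a median of 1.09 CPM, and the trained vehicle libraries were at 0.931, 1.27, 1.31 and 1.91 CPM. All 6 corticosterone libraries thus lay above all 10 vehicle libraries, with the lowest of them at 4.79 CPM and the highest vehicle library at 1.91 CPM. Its rise was 5.10-fold, or 2.35 on the log2 scale (SE 0.16, edgeR adjusted p = 4.6e-07). The transcript was scarce, with a count of 11 to 31 in vehicle and of 72 to 150 in corticosterone libraries.

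ENSRNOG00000000521 also separated the treatments without overlap. It was at 9.60, 11.3 and 13.5 CPM in untrained and at 12.4, 13.3 and 16.8 CPM in trained corticosterone libraries. Vehicle values were 4.64 to 6.22 CPM (median 5.26) in untrained libraries and 5.16, 5.72, 5.85 and 6.66 CPM in trained ones. The lowest corticosterone library stood at 9.60 CPM and the highest vehicle library at 6.66 CPM. The gene rose 2.31-fold, or 1.21 on the log2 scale (SE 0.09, edgeR adjusted p = 1.43e-06). Both of these genes stayed past the threshold in all 32 alternative settings computed for them, with log2 fold changes from 2.27 to 2.53 for ENSRNOG00000017198 and from 1.09 to 1.34 for ENSRNOG00000000521.

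Among the genes that fell, ENSRNOG00000017879 had the smallest p. It was at 26.3, 30.7 and 32.1 CPM in untrained and at 22.9, 28.7 and 29.9 CPM in trained corticosterone libraries. Untrained vehicle libraries ranged from 36.0 to 49.6 CPM around a median of 38.3 CPM, and trained vehicle libraries were at 34.55, 35.5, 38.2 and 38.8 CPM. Every corticosterone library lay below every vehicle library, the nearest being 32.1 CPM and 34.55 CPM. It fell by 0.42 on the log2 scale (SE 0.07, edgeR adjusted p = 0.00723). When runs of 5 sample numbers were blocked, with fewer libraries informing the comparison, the log2 fold change was -0.34 and the call was lost (edgeR adjusted p = 0.486). Over 32 alternatives, DESeq2 and limma-voom included, the log2 fold change ran from -0.47 to -0.34, and the smallest adjusted p was 1.54e-05 with DESeq2.

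ENSRNOG00000003434 showed a smaller fall. Its level was 24.7, 25.4 and 27.4 CPM in untrained and 24.2, 24.3 and 25.5 CPM in trained corticosterone libraries, against 29.1 to 33.25 CPM (median 30.8) in untrained and 25.65, 28.6, 29.6 and 32.85 CPM in trained vehicle libraries. The treatments overlapped by 1 library on each side: 5 of 6 corticosterone libraries were under the whole vehicle range, and untrained corticosterone replicate 4 lay above trained vehicle replicate 10. The log2 fold change was -0.24 (SE 0.05, edgeR adjusted p = 0.025). Over 32 alternatives, DESeq2 and limma-voom included, the log2 fold change ran from -0.26 to -0.17 and the adjusted p from 0.00282 (DESeq2) to 0.799 (edgeR with the block). The call was lost in 11 of them, 5 of which left out 1 library (edgeR adjusted p in parentheses): trained corticosterone replicate 18 (0.0709) or 3 (0.0547), trained vehicle replicate 25 (0.056), or untrained corticosterone replicate 14 (0.095) or 9 (0.0721). It was also lost with the 12, 13, 14 and 20 lowest libraries (edgeR adjusted p = 0.212, 0.15, 0.102 and 0.127). Sample number as covariate (edgeR adjusted p = 0.0782) and the block lost it as well.

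**Figure D2:**
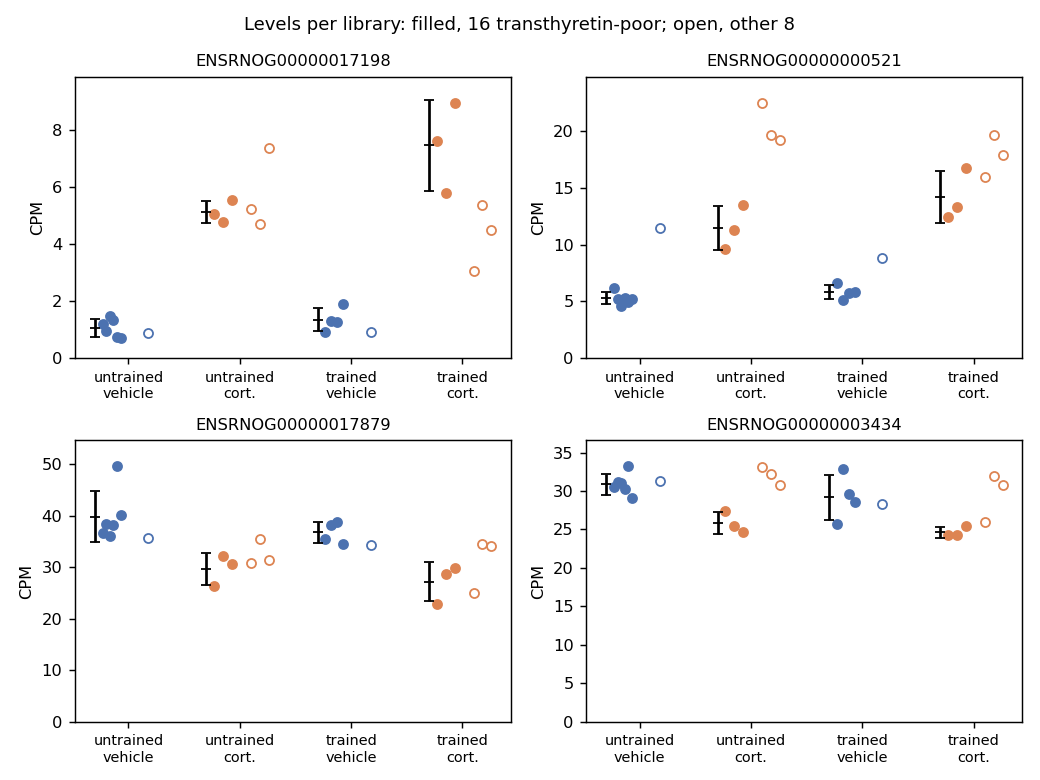
Level in CPM of the 4 identified genes in every library, by group, with filled points for the 16 transthyretin-poor libraries, open points for the other 8, and bars for the mean ± SD of the filled points. The upper genes are higher in every filled corticosterone point than in any filled vehicle point, ENSRNOG00000017879 is lower in every one, and for ENSRNOG00000003434 the open corticosterone points reach 33.1 CPM, up with the vehicle points.

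The remaining called genes are described by rank of p, without identifiers. The third and the fourth of those that rose went up by 1.51 (SE 0.16) and 1.06 (SE 0.11) on the log2 scale, and both had the same edgeR adjusted p, 0.000132. The third was scarce, at 2.03 ± 0.246 CPM in vehicle and 5.78 ± 1.96 CPM in corticosterone libraries (SD, n = 10 and 6). Its neighbour in rank was far more abundant, going from 95.6 ± 17.3 CPM to 199.9 ± 36.5 CPM (SD, n = 10 and 6). All 6 corticosterone libraries were above all 10 vehicle libraries for both. The most abundant gene that rose changed little at a high level, from 1235 ± 78.2 CPM to 1423 ± 26.3 CPM (SD, n = 10 and 6), or 0.22 on the log2 scale (SE 0.04, edgeR adjusted p = 0.0146). The largest fall, -0.67 on the log2 scale (SE 0.13, edgeR adjusted p = 0.0325), was in a scarce transcript that went from 2.997 ± 0.41 CPM to 1.87 ± 0.34 CPM (SD, n = 10 and 6).

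Mean levels of the genes that rose spanned 3.01 to 1305 CPM with a median of 21.7 CPM, and 11 of the 43 were under 10 CPM, 28 between 10 and 100 CPM and 4 above. The genes that fell spanned 2.58 to 87.7 CPM. Every corticosterone library was above every vehicle library for 29 of the 43 genes that rose, against 0.209% of all genes tested, and below every vehicle library for 6 of the 8 that fell, against 0.0673%. The same values chose these genes, so these shares describe them. Over the 24 libraries the median Spearman correlation with Ttr was 0.27 for the genes that rose, with a highest value of 0.67, and -0.14 for those that fell. The Ttr-rich libraries were 6 corticosterone and 2 vehicle, so these correlations mix treatment with Ttr level. A correlation above 0.7 was found for 0 of the 51 and for 365 of all 14838 genes tested in the 24 libraries. That share of all genes is so small that 0 of 51 does not set the called genes apart.

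**Figure D3:**
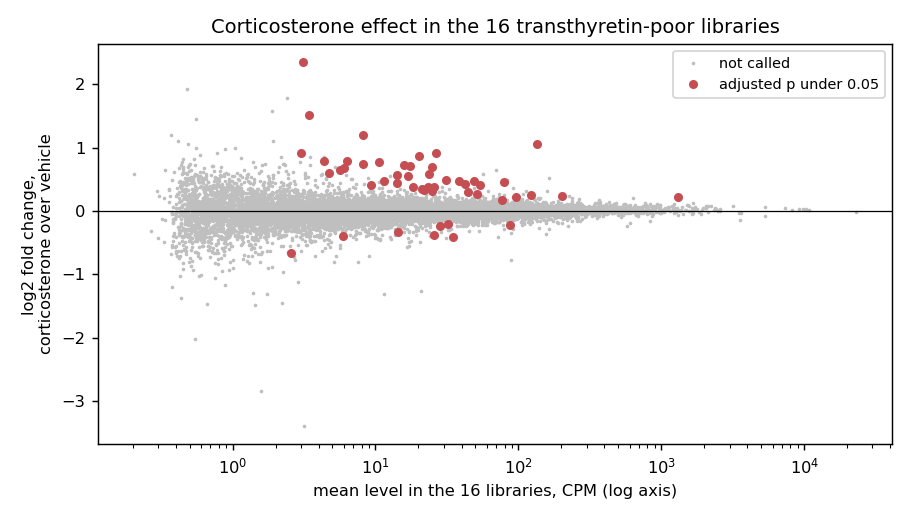
Log2 fold change of corticosterone over vehicle against mean CPM (log axis) for the 14860 genes tested in the 16 libraries, with the 51 called genes in red. Most red points lie above 0, between 3.01 and 1305 CPM, and some scarce genes with larger fold changes were not called.

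Within the kept untrained libraries (3 corticosterone, 6 vehicle) 10 genes rose and 0 fell, 0.0673% of those tested. Within the kept trained libraries (3 corticosterone, 4 vehicle) 15 rose and 0 fell, 0.101% of those tested. Both counts come from a fit of all 16 libraries, so the libraries of the other training state add to the estimate of spread. When only the libraries of 1 state were fitted, 8 genes passed in untrained and 2 in trained libraries. ENSRNOG00000017198 had log2 fold changes of 2.25 (SE 0.22, edgeR adjusted p = 0.000238) in untrained and 2.46 (SE 0.24, edgeR adjusted p = 0.000194) in trained libraries. ENSRNOG00000000521 rose by 1.13 (SE 0.13, edgeR adjusted p = 0.000708) and 1.29 (SE 0.14, edgeR adjusted p = 0.000357) on the same scale. Neither gene that fell passed in a single training state: ENSRNOG00000017879 was at -0.41 and -0.42 (edgeR adjusted p = 0.288 and 0.263) and ENSRNOG00000003434 at -0.24 and -0.23 (edgeR adjusted p = 0.397 and 0.449).

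The counts within a state changed when single libraries were left out. In untrained libraries the count of 10 became 2 without untrained corticosterone replicate 14, 3 without replicate 9 and 6 without replicate 4 of that group, and 5, 4, 4, 5 and 6 without untrained vehicle replicates 2, 7, 22, 32 and 41. In trained libraries the count of 15 became 3 without trained corticosterone replicate 28, 60 without trained vehicle replicate 10, 6, 4 and 8 without trained vehicle replicates 20, 25 and 35, and 8 without untrained corticosterone replicate 9. With DESeq2 the counts were 34 and 44.

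No gene showed a hormone response that differed between training states in the kept libraries (0 of 14860, edgeR, smallest adjusted p = 0.69). Before adjustment, 1005 genes (6.76%) had p under 0.05, and DESeq2 and limma-voom also called 0. For ENSRNOG00000017198 the trained minus untrained difference in log2 fold change was 0.20, with a 95% interval from -0.52 to 0.92, and for ENSRNOG00000000521 it was 0.15, from -0.25 to 0.56. The interval lay within 2-fold in either direction for 81.8% of genes. For training itself, with treatment as covariate, 0 genes were called (edgeR, smallest adjusted p = 0.868), which does not show that it changed none. The 95% interval lay within 1.5-fold for 86.8% of genes and within 2-fold for 96.5%. Before adjustment 837 (5.63%) had p under 0.05, and 0 were called by DESeq2 and limma-voom.

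The 8 Ttr-rich libraries had no part in choosing the 51 genes, so the response could be followed there in separate samples, although with only 2 vehicle libraries. All 43 genes that rose in the 16 had the same sign in the 8, and 6 of the 8 that fell did. Together 49 of 51 kept their sign, where 50.6% of all 14795 genes tested in both sets had the same sign. In the direction of the call, the median log2 fold change of the 43 was 0.48 in the 16 and 0.47 in the 8, and that of the 8 genes that fell was 0.35 and 0.17. With the same sign, p before adjustment was under 0.05 for 36 of the 43, 2 of the 8 and 3.6% of all genes (edgeR). Every corticosterone library of the 8 was above both vehicle libraries for 34 of the 43 genes, against 4.77% of all genes tested, and below both for 2 of the 8 that fell, against 3.55%.

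Both identified genes that rose were also higher with corticosterone in the Ttr-rich libraries. ENSRNOG00000017198 was at 3.06 to 7.38 CPM (median 4.95) in the 6 corticosterone libraries and at 0.884 and 0.921 CPM in the vehicle libraries, a difference of 2.46 on the log2 scale (SE 0.33, edgeR adjusted p = 0.0481). ENSRNOG00000000521 was at 15.9 to 22.5 CPM (median 19.4) and at 8.78 and 11.5 CPM, a difference of 0.91 on the log2 scale (SE 0.11, edgeR adjusted p = 0.0292). For ENSRNOG00000000521 both of these vehicle levels were above all 10 kept vehicle libraries, while the corticosterone ranges of the 2 sets overlapped, from 9.60 to 16.8 CPM in the kept set.

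The identified genes that fell were lower by less, or not lower, in the Ttr-rich libraries. ENSRNOG00000017879 ranged from 25.03 to 35.55 CPM (median 32.8) in Ttr-rich corticosterone libraries and was at 34.3 and 35.75 CPM with vehicle, a log2 fold change of -0.14 with a 95% interval from -0.39 to 0.10. ENSRNOG00000003434 ranged from 25.9 to 33.1 CPM (median 31.4) with corticosterone and was at 28.3 and 31.3 CPM with vehicle, a log2 fold change of 0.04 with an interval from -0.14 to 0.21. The groups overlapped for both genes, and neither passed there (edgeR adjusted p = 0.866 and 0.966).

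Fitted alone, the 8 Ttr-rich libraries gave 7 called genes, all higher, 0.0459% of the 15259 tested. All 7 were among the 43 that rose in the 16. The count depended on single libraries: it was 18 (7 higher, 11 lower) without trained vehicle replicate 5 and 2 (1 higher, 1 lower) without untrained vehicle replicate 17, each of which leaves 1 vehicle library that is assumed to vary like the rest, and 3, 3, 3 and 4 without untrained corticosterone replicates 19 and 29 and trained corticosterone replicates 33 and 40. With the sample number as a covariate it was 0. The count of 49 with the same sign stayed between 48 and 50 when each of the 8 libraries was left out in turn.

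The difference in response between the 16 and the 8 was then tested directly in all 24 libraries. No gene passed (0 of 14838, edgeR, smallest adjusted p = 0.911), 773 (5.21%) had p under 0.05 before adjustment, and DESeq2 and limma-voom called 0. Without trained vehicle replicate 5 the count was 3, and without untrained vehicle replicate 17 it was 1. For ENSRNOG00000017198 the log2 fold change in the 16 minus that in the 8 was -0.09, with a 95% interval from -0.95 to 0.77. It was 0.32 for ENSRNOG00000000521, from -0.06 to 0.70, and -0.28 for ENSRNOG00000017879, from -0.56 to 0.01. For ENSRNOG00000003434 the difference was -0.28, from -0.46 to -0.10 (edgeR unadjusted p = 0.0035, adjusted p = 0.911). Among the 51 genes the interval lay within 1.5-fold for 36 and within 2-fold for 49, against 69.4% and 85% of all genes. The effect in the direction of the call was larger in the 16, whose values chose the genes, for 35 of the 51.

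**Figure D4:**
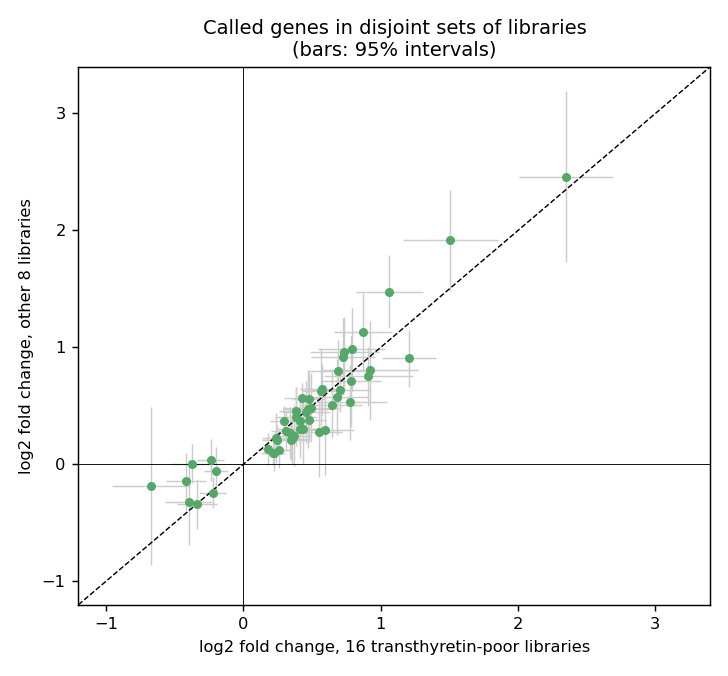
Log2 fold change of corticosterone over vehicle for the 51 called genes in the 16 transthyretin-poor libraries (horizontal, the values that chose the genes) and in the other 8 (vertical), with 95% intervals as bars and a dashed line of equality. All 43 genes that rose lie above 0 on the vertical axis, and 2 of the 8 that fell lie just above it.

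With all 24 libraries, which include the 16, 133 genes passed for corticosterone (0.896% of 14838), 100 higher (0.674%) and 33 lower (0.222%). Adding log2 Ttr CPM as a covariate gave 118, 96 higher and 22 lower. The 2 fits share libraries, so their values are given side by side. ENSRNOG00000017198 had log2 fold changes of 2.35 in the 16 and 2.29 in the 24, and ENSRNOG00000017879 of -0.42 and -0.33. Of the genes called in the 16, 42 of the 43 that rose and 6 of the 8 that fell were also called in the 24. ENSRNOG00000003434 passed in the 16 (-0.24) and not in the 24 (-0.10, edgeR adjusted p = 0.543). The SE was smaller in the 24 for 93.7% of the 14748 genes in both fits, with a median SE of 0.07 in the 16 and 0.06 in the 24. The common biological coefficient of variation, edgeR's summary of spread between libraries beyond counting, was 0.0986 in the 16 and 0.128 in the 24.

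As for 15.3% of all genes and 7 of the 51 called, the estimate of ENSRNOG00000000521 over all libraries lay above those of both subsets. Its log2 fold change was 1.34 in the 24 (SE 0.15), against 1.23 (SE 0.10) in the 16 and 0.91 (SE 0.16) in the 8 when all 24 libraries were fitted with a separate response in each set. Vehicle libraries averaged 5.50 ± 0.612 CPM in the kept set (SD, n = 10) and 10.1 ± 1.92 CPM in the others (SD, n = 2), and corticosterone libraries 12.8 ± 2.41 and 19.1 ± 2.16 CPM (SD, n = 6 each). Its mean was thus higher in Ttr-rich libraries under either treatment, and Ttr-rich libraries made up 6 of 12 corticosterone and 2 of 12 vehicle libraries. The part of this imbalance in the estimate was not tested for single genes.

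Genes that followed Ttr gave different values in the 24 and in the 16. Over the 24 libraries 365 genes besides Ttr had a Spearman correlation with it above 0.7, a list chosen on these values and described without a test. Their median log2 fold change for corticosterone was 0.37 in the 24 libraries and -0.01 in the 16, where 329 of them were tested, and 3 were called in the 24 and 0 in the 16. In the 24-library fit 364 of the 365 were on the higher side, and in the 16-library fit 144 of 329. For 337 of the 365 (92.3%) the estimate over the 24 exceeded that in each subset, against 15.3% of all genes. The genes were chosen on the same 24 libraries, and Ttr-rich ones made up 6 of 12 corticosterone and 2 of 12 vehicle libraries. The signs in the 24 and the share of 92.3% were largely set by this, so they only describe the list. Their median SE was 0.19 over the 365 in the 24 and 0.11 over the 329 in the 16. The 21 genes with a correlation above 0.9 kept a median of 0.40 in the 16 (19 tested, median SE 0.76), against 1.60 in the 24 (median SE 0.85), and 0 were called in either. The 16 were chosen by low Ttr and these genes for following Ttr, so neither their values nor their SEs in the 16 are independent of the rule.

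**Figure D5:**
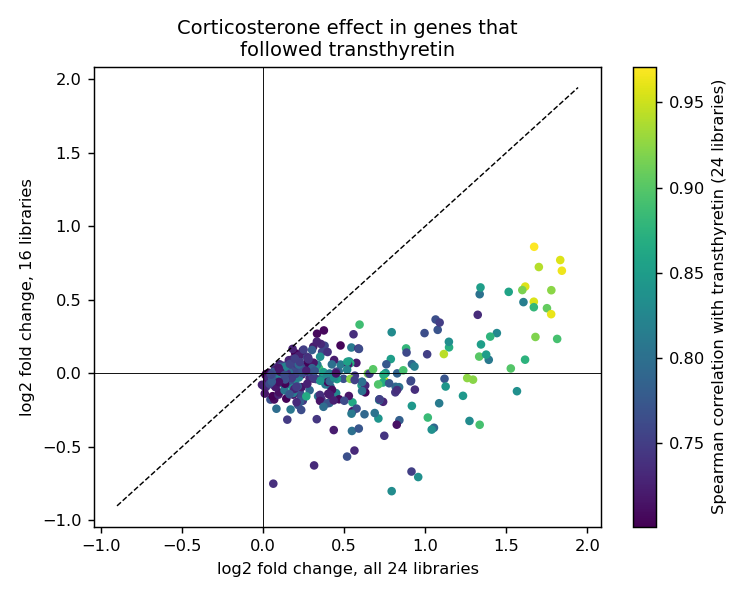
Log2 fold change of corticosterone over vehicle in all 24 libraries (horizontal) and in the 16 transthyretin-poor libraries (vertical) for the 329 genes tested in both that followed transthyretin, coloured by Spearman correlation, with a dashed line of equality. The median over the genes tested in the 16 is -0.01 on the vertical axis, most points lie to the right of 0, and the genes with the highest correlations lie farthest to the right.

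Removing the 3 kept libraries nearest the cut-off left 5 corticosterone and 8 vehicle libraries at or below 33.6 CPM of Ttr. In these 13 libraries 38 genes passed, 34 higher and 4 lower. ENSRNOG00000003434 was not among them (log2 fold change -0.23, edgeR adjusted p = 0.15). Adding log2 Ttr CPM as a covariate within the 16 gave 49 genes, 44 higher and 5 lower.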

How the data were processed

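The authors deposited raw counts per gene, whole numbers for 32883 Ensembl rat gene identifiers. Tools named are HTSeq 0.6.1, STAR 2.7.0b, MultiQC and FastQC, with build rn6, per the submitters' processing notes. Annotation release and strand setting: not given in the sources used here. Overlapping, antisense and near-identical genes are thus uncertain. Summary lines (5) stayed out, and 59.8% to 62.6% of each kept column was assigned to genes. Of the identifiers, 0 matched the 47357 genes of the GRCr8 reference table, so the 20 gene and marker lists could not be looked up. Libraries were grouped by title and ranked by plain CPM of Ttr. Levels are plain CPM, and fold changes come from TMM-scaled counts.

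The members and lists were chosen with earlier results of these data known. Genes passing filterByExpr were tested with edgeR 4.0.16 in R 4.3.3 (glmQLFit and glmQLFTest) with Benjamini-Hochberg adjustment over all genes tested, and called at an adjusted p under 0.05. The named genes are the 2 with the smallest p in each direction at a mean of at least 1 CPM. SEs are Wald errors derived from the F statistic, and intervals are for single genes. Library measures were compared with exact permutation tests (scipy), whose smallest p is 0.00025. DESeq2 1.42.0, limma 3.58.1, sva 3.50.0, other factors, filters, numbers of libraries and covariates were alternatives. The code was tested on simulated data. No pair of kept libraries within a group was as close as sampling noise (smallest chi-square per degree of freedom 4.28). Reads carry no molecular identifiers, so counts may include copies.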

Additional observations from a re-analysis of the deposited data

Results flagged for a closer look

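ENSRNOG00000017879, the gene with the smallest p among those that fell, was at 49.6 CPM in untrained vehicle replicate 32, while the other 5 kept untrained vehicle libraries lay between 36.0 and 40.1 CPM. The gap of this library to its nearest neighbour was 0.704 of the range of the group, where Dixon's 95% limit for 6 libraries is 0.625. Without it the log2 fold change of the gene was -0.38 (edgeR adjusted p = 0.00424). This was 1 of 24 sets of values examined, all from vehicle groups, and chance gives about 1 in 20. The corticosterone groups, with 3 kept libraries each, were too small for this rule and were not examined.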

How the results depend on the processing

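For corticosterone in the 16 libraries, 51 genes passed, and 12 of 16 other settings gave a count within 1.5 times of it. The exceptions were 22 with the 12 lowest libraries, 100 with the 20 lowest, 101 with DESeq2 and 10 when runs of 5 sample numbers were blocked, and the counts without each library in turn ran from 35 to 60. The share of higher genes was 84.3%. Without the filter on low counts it was 69.3% with DESeq2, which kept its own filter on mean count, and 83% with edgeR. DESeq2 gave 34 in untrained and 44 in trained libraries, and 2 passed when only the trained libraries were fitted. Without each library in turn these counts ran from 2 to 12 and from 3 to 60, and the count for the difference between the 16 and the other 8 from 0 to 3. In the other 8 alone the count of 7 was 31 with DESeq2, 3 with limma-voom, 22 without a filter and 0 with the sample number as covariate, and 2 to 18 without each library. The difference in genes detected ran from 104.4 to 144.8 without each library and passed without untrained corticosterone replicate 4 or 14. The causes were not tested. The fit of the 8 and the set of 13 libraries were chosen after seeing the data. Ranking by other choroid plexus markers was not run, since names could not be paired. No paired analysis was possible because no sample number repeats across groups. Runs of 5 consecutive numbers, which the labels do not call batches, were blocked instead, with the count of 10 and its limit given above.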
